A study of Mus musculus with 36 samples.

Results

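The AP-1 and immediate early factors examined here were 9 mouse genes chosen by name (Fos, Fosb, Fosl1, Fosl2, Jun, Junb, Jund, Atf3 and Egr1) out of the 52636 genes counted in bulk RNA-seq of small intestinal organoids. Organoids grown from jejunal crypts of C57BL/6 mice were cultured for 2 days in 6 conditions with 6 libraries each. Control IgG was given in complete media, in QCM, in SCM and with Wnt5a, and an antibody against Ptk7 in SCM and with Wnt5a. QCM had been conditioned by quiescent (serum-deprived) mouse embryonic fibroblasts and SCM by senescent ones (X-ray irradiated or doxorubicin-treated). Both media were concentrated on centrifugal filters and mixed with the complete organoid medium. Each thus carries products of the fibroblasts, enriched for those that the filters held back. Wnt5a, a secreted Wnt ligand, was added as recombinant protein to complete media. Ptk7 is a receptor-like membrane protein with an inactive kinase domain that takes part in Wnt signalling. No complete media or QCM libraries with the antibody were analysed here, and the labels give neither the age nor the sex of the mice.

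AP-1 is a family of dimeric transcription factors in which FOS proteins pair with JUN proteins, and ATF and JDP proteins can take either place, through a leucine zipper next to a basic region that reads DNA. Many of their genes are immediate early genes: growth factors, stress and cell stretching switch them on within minutes through MAP kinases and serum response factor, without new protein synthesis, and their mRNAs decay quickly. In the intestinal epithelium AP-1 is known for its part in proliferation, wound repair and tumour growth. EGR1 is a zinc finger factor of the same early wave that binds other DNA sites.

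The sequences just before the start sites of Fos, Jun, Junb and Atf3 are shown because these genes, with Fosl1, were the members called higher with SCM or Wnt5a. They are the 250 bases before the start in RefSeq's promoter table (GRCm38.p6), which held 7 of the 9 members, and are written 5′ to 3′ on the gene's own strand. The windows are chr12:85473640-85473889 (plus strand) for Fos, chr4:95052223-95052472 (minus strand) for Jun, chr8:84978749-84978998 (minus strand) for Junb and chr1:191183334-191183583 (minus strand) for Atf3, which in the GENCODE M21 annotation lies inside a longer Atf3 gene model. Capitals mark matches, on either strand, to the letters that ATF, CREB and AP-1 dimers are known to read: TGANTCA and TGACNTCA, then TGACGT and the shorter TGACG contained in it. The CArG box read by serum response factor was searched as well.
Fos: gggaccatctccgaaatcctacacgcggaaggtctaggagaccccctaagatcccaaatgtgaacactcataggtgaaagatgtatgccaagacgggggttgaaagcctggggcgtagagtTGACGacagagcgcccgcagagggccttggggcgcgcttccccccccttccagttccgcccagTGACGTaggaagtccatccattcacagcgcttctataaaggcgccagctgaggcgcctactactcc
Jun: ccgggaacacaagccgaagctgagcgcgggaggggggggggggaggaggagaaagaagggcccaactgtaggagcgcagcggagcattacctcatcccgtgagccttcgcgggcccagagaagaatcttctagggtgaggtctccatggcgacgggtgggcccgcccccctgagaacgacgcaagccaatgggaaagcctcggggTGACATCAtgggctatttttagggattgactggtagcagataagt
Junb: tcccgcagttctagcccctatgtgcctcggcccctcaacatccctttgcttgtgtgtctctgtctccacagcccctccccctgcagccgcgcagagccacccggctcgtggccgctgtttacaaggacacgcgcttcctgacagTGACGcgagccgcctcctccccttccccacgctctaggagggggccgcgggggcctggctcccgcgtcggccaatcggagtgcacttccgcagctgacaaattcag
Atf3: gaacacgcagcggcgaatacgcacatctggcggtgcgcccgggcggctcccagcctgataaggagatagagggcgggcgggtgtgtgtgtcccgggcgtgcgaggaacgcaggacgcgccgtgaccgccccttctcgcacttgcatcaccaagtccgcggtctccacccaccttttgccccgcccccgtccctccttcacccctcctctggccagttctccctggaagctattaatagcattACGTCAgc

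The Fos window held TGACGT at positions -66 to -61, counted back from the start site, and a further TGACG at -129 to -125. In Jun the match was TGACATCA at -45 to -38, an instance of TGACNTCA. Atf3 held the reverse complement of TGACGT at -8 to -3, and Junb held TGACG at -106 to -102. Neither TGANTCA nor a CArG box was in any of the 4 windows. Among the 32851 windows of this length in the table, 6.47% held TGACGT, 17.8% TGACG, 7.49% TGACNTCA, 6.75% TGANTCA and 1.47% a CArG box. The letters were matched after the sequences had been seen, and a match is a description of the window only.

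Total counts ranged from 9581589 to 21029769 per library (median 13490071). Epithelial genes were high in all 36 libraries, with the summed level of 8 markers between 8916 and 32342 CPM (the count scaled to the library's total after TMM, a trimmed mean that corrects for composition). The sum of 8 fibroblast markers was at most 7.36 CPM, most of it Pdgfrb (at most 6.34 CPM, and at 0 in 3 libraries), and Col3a1, Dcn and Thy1 had no count in any of the 36 libraries (3 counts, the limit taken for a count of 0, equal 0.141 to 0.313 CPM per library). Immune and endothelial markers summed to at most 18.1 and 1.18 CPM, the former almost entirely Csf1r. The libraries numbered 1 in Wnt5a + IgG and Wnt5a + anti-Ptk7 had the lowest TMM factors (0.925 and 0.908), and several of the values below that include them are given also without them.

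Of the 9 members, 8 were detected at a mean of 0.5 CPM or more and entered the test. Fosb, which encodes a FOS protein best known from activated neurons, was not detected: 14 of 36 libraries had any count, the highest count was 12, and the mean was 0.0926 CPM. All 6 QCM + IgG libraries were at 0, which allows up to 0.190 to 0.250 CPM in each. The most abundant mRNA per kilobase of coding sequence was Jund in every condition, at 297 ± 18.8 CPM per kilobase in complete media + IgG (SD, n = 6), and Jun was second at 160 ± 26.8 CPM per kilobase. Fosl1 was lowest there, at 14.9 ± 6.47 CPM per kilobase. Fos moved from rank 6 in complete media + IgG to rank 3 in Wnt5a + anti-Ptk7, where it reached 161 ± 69.4 CPM per kilobase. Dividing by exon length instead left Jund and Jun first in every condition but put Fosl2, whose mRNA has a long untranslated part, last.

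Across the 6 conditions together, 6 of the 8 tested members differed (adjusted p below 0.05 in edgeR's quasi-likelihood test of any condition, Benjamini-Hochberg over 15497 genes), while 39.5% of all tested genes did. Without Wnt5a + IgG replicate 1 it was 3 of the 8, no more than the share of all genes in the full fit. The share of all genes in that refit was not taken. The adjusted p was 4.79e-05 for Jun, 8.08e-05 for Fos, 0.00057 for Junb, 0.015 for Fosl1, 0.0317 for Jund and 0.0405 for Fosl2. Atf3 (0.159) and Egr1 (0.107) did not pass. Complete media + IgG had the lowest mean of the 6 conditions for 7 of the 8 detected members. The exception was Egr1, lowest in QCM + IgG. Mean CPM of Fos was ordered as complete media + IgG (40.9), QCM + IgG (66.7), SCM + anti-Ptk7 (107), SCM + IgG (129), Wnt5a + IgG (146) and Wnt5a + anti-Ptk7 (183). For Jun the antibody-treated cultures were the highest, at 279 CPM with SCM and 328 CPM with Wnt5a, whereas for Fosl1 and Junb Wnt5a + IgG was (31.5 and 172 CPM). No neighbours in any member's order of condition means were called different.

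**Figure D1:**
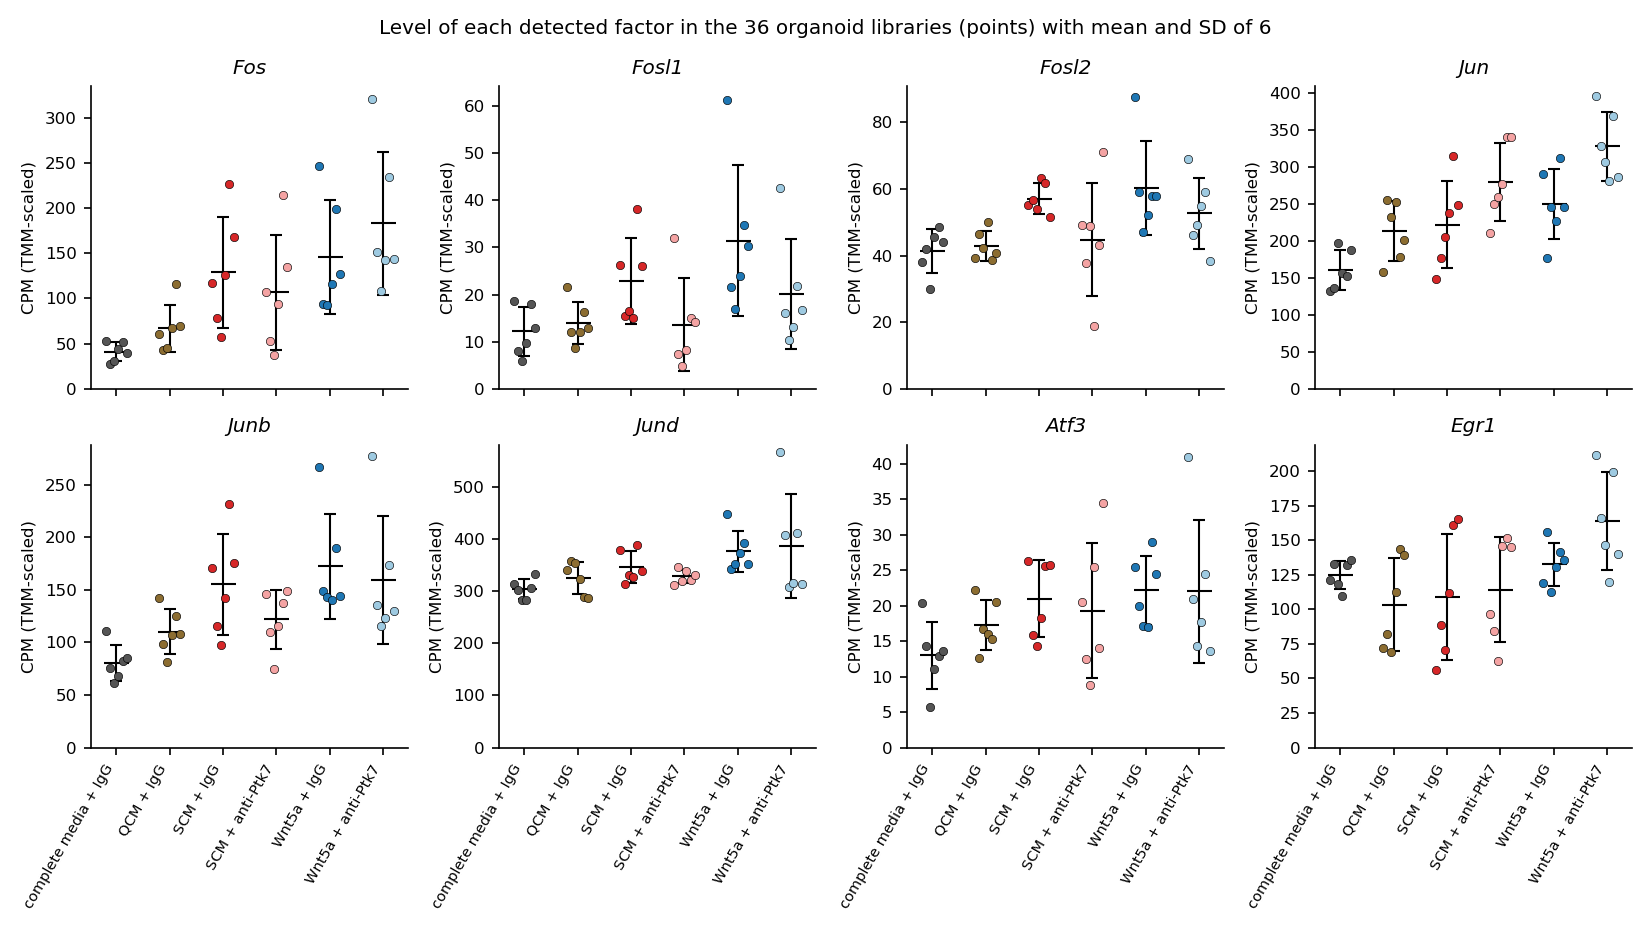
TMM-scaled CPM (vertical axes, linear from 0) of the 8 detected members in the 6 conditions. Each point is a library, the horizontal bar is the mean and the whiskers are the SD of 6 libraries. Fos in all 6 SCM + IgG and all 6 Wnt5a + IgG libraries lay above the 52.3 CPM of the highest complete media + IgG library, while Egr1 overlapped between all conditions shown.

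For each pair of conditions a gene was called when the adjusted p was below 0.05 and the fold change above 1.5. With SCM, 2 of the 8 tested members were called higher than in complete media and none lower, beside 6.08% of all tested genes called in either direction. With Wnt5a, 5 of 8 were called higher and none lower, beside 10.2% of all genes. Leaving out 1 library moved the Wnt5a count between 3 and 6, with counts over all genes given in the last section. These comparisons share the complete media libraries, so their values stand side by side and are not independent. RNA of whole organoids was measured, so more cells that transcribe a factor and more mRNA per cell cannot be told apart.

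Fos (chr12:85473890-85477273), which encodes the FOS protein that pairs with JUN proteins, changed most. In complete media + IgG the lowest, median and highest library had 27.2, 41.7 and 52.3 CPM. In SCM + IgG they had 57.3, 122 and 227 CPM, and in Wnt5a + IgG 92.3, 122 and 247 CPM. Neither condition overlapped complete media. Fos rose 3.15-fold with SCM (log2 fold change 1.65 ± 0.35 SE, adjusted p = 0.00157) and 3.56-fold with Wnt5a (1.83 ± 0.35, adjusted p = 0.000263). Without both Wnt5a libraries numbered 1 the Wnt5a value was 1.62 (adjusted p = 0.000876). QCM + IgG lay between, at 43.2, 64.0 and 115 CPM, and overlapped both.

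Fosl1 (chr19:5447547-5455946) encodes FRA-1, a FOS-related protein without the FOS activation domain that is known for its part in cell migration. Its libraries held 5.84, 11.3 and 18.6 CPM (lowest, median, highest) in complete media + IgG, 14.99, 21.2 and 38.2 CPM in SCM + IgG and 16.8, 27.1 and 61.4 CPM in Wnt5a + IgG. The highest Wnt5a library was number 1, and the ranges of both conditions overlapped that of complete media. Fosl1 rose 2.58-fold with Wnt5a (log2 1.37 ± 0.38, adjusted p = 0.00832, and 1.07 without both Wnt5a libraries numbered 1, adjusted p = 0.0291). With SCM its log2 fold change was 0.91 ± 0.38 (adjusted p = 0.12). With the replicate number as a block, that is, comparing same-numbered libraries, the SCM value was 0.97 and passed (adjusted p = 5.35e-05), beside 7.31% of all genes. With Wnt5a the block called the same 5 members, beside 11% of all genes.

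Fosl2 (chr5:32135801-32157842) encodes FRA-2, the other FOS-related protein. It was steady in complete media + IgG (30.1, 43.0 and 48.5 CPM) and in QCM + IgG (38.7, 41.6 and 50.1 CPM). All SCM + IgG libraries, at 51.6, 56.0 and 63.3 CPM, lay above both of these groups. The fitted differences were small: log2 0.47 ± 0.18 for SCM against complete media (adjusted p = 0.086) and 0.54 ± 0.18 for Wnt5a (adjusted p = 0.0263, below the fold cutoff). The highest Wnt5a + IgG library, number 1, had 87.5 CPM, and without both Wnt5a libraries numbered 1 the value was 0.40 (adjusted p = 0.109).

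Among the JUN genes, which encode proteins that bind DNA alone or with FOS partners, Junb (chr8:84974484-84978718) changed most in these IgG comparisons. JUNB is known as a weaker activator than JUN that can hold it in check. The lowest, median and highest libraries had 61.0, 79.0 and 110.3 CPM in complete media + IgG, 97.8, 156 and 231 CPM in SCM + IgG, and 141, 146 and 267 CPM in Wnt5a + IgG. Every Wnt5a + IgG library lay above complete media + IgG, and SCM + IgG overlapped it. Junb rose 1.93-fold with SCM (log2 0.95 ± 0.21, adjusted p = 0.00236) and 2.14-fold with Wnt5a (log2 1.10 ± 0.21, adjusted p = 0.000261, and 0.93 without both Wnt5a libraries numbered 1, adjusted p = 0.000354).

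Jun (chr4:95049034-95052222) had 132, 154 and 197 CPM in complete media + IgG, 149, 221 and 315 CPM in SCM + IgG and 177, 245 and 312 CPM in Wnt5a + IgG. The ranges overlapped throughout. Jun rose 1.56-fold with Wnt5a (log2 0.64 ± 0.15, adjusted p = 0.00272), just above the fold cutoff. Without both Wnt5a libraries numbered 1 it was at 0.586 (adjusted p = 0.00935), at the cutoff itself. The fold fell below that cutoff when complete media + IgG replicate 2 (log2 0.58) or Wnt5a + IgG replicate 5 (log2 0.57) was left out. With SCM the value was 0.47 ± 0.15 (adjusted p = 0.042), under the cutoff.

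Jund (chr8:70698949-70700616) encodes the JUN protein that most cells make without a stimulus, and it varied least. Its libraries ranged from 283 to 333 CPM in complete media + IgG, 314 to 389 in SCM + IgG and 343 to 448 in Wnt5a + IgG. The Wnt5a range lay wholly above that of complete media, yet the log2 fold change was 0.31 ± 0.10 (adjusted p = 0.0246), far under the cutoff, and it was 0.19 ± 0.10 with SCM (adjusted p = 0.243). An antisense gene, Gm11175, lies across 919 bases of Jund and had 2075 to 4273 counts per library. Whether the counting used strand is not stated in the sources used here, so reads of the pair may have been shared. Opposite-strand genes also overlap the models of Fosl1 (Ccdc85b, 106 to 293 counts per library), Jun (Junos, 0 to 5), Junb (Prdx2, 1147 to 2968) and Atf3 (Gm24748, 0 counts in every library), and no other gene model overlaps those of Fos, Fosl2 and Egr1.

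Atf3 (chr1:191170296-191218039) encodes a stress-induced zipper protein that represses many of its targets. It was scarce, at 5.67, 13.3 and 20.3 CPM in complete media + IgG, 14.3, 21.9 and 26.3 CPM in SCM + IgG and 17.1, 22.2 and 29.03 CPM in Wnt5a + IgG. Atf3 rose 1.71-fold with Wnt5a (log2 0.77 ± 0.28, adjusted p = 0.043), and this call was lost in many alternatives, for example without both Wnt5a libraries numbered 1 (log2 0.73, adjusted p = 0.0564). With SCM it was at log2 0.69 ± 0.28 (adjusted p = 0.105), and with the replicate block at 0.72 (adjusted p = 0.0184), which passed.

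Egr1 (chr18:34859823-34864984) was called in none of these comparisons, with or without the block. Over all pairs of conditions it passed both cutoffs in a single pair without the block, Wnt5a + anti-Ptk7 against QCM + IgG (log2 0.66, adjusted p = 0.02). That pair differs by medium and antibody together. It had 109.8, 127 and 136 CPM in complete media + IgG, 56.3, 100.2 and 165 CPM in SCM + IgG and 113, 133 and 156 CPM in Wnt5a + IgG. The spread was widest in SCM + IgG, where libraries lay on both sides of the complete media range. The log2 fold change was -0.20 ± 0.22 with SCM (95% interval -0.64 to 0.23, adjusted p = 0.621) and 0.08 ± 0.22 with Wnt5a (-0.35 to 0.52, adjusted p = 0.837).

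Ranges that did not overlap complete media were found for 2 of the 8 tested members with SCM (Fos and Fosl2), beside 6.29% of all tested genes, and for 3 with Wnt5a (Fos, Junb and Jund), beside 11.7%.

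**Figure D2:**
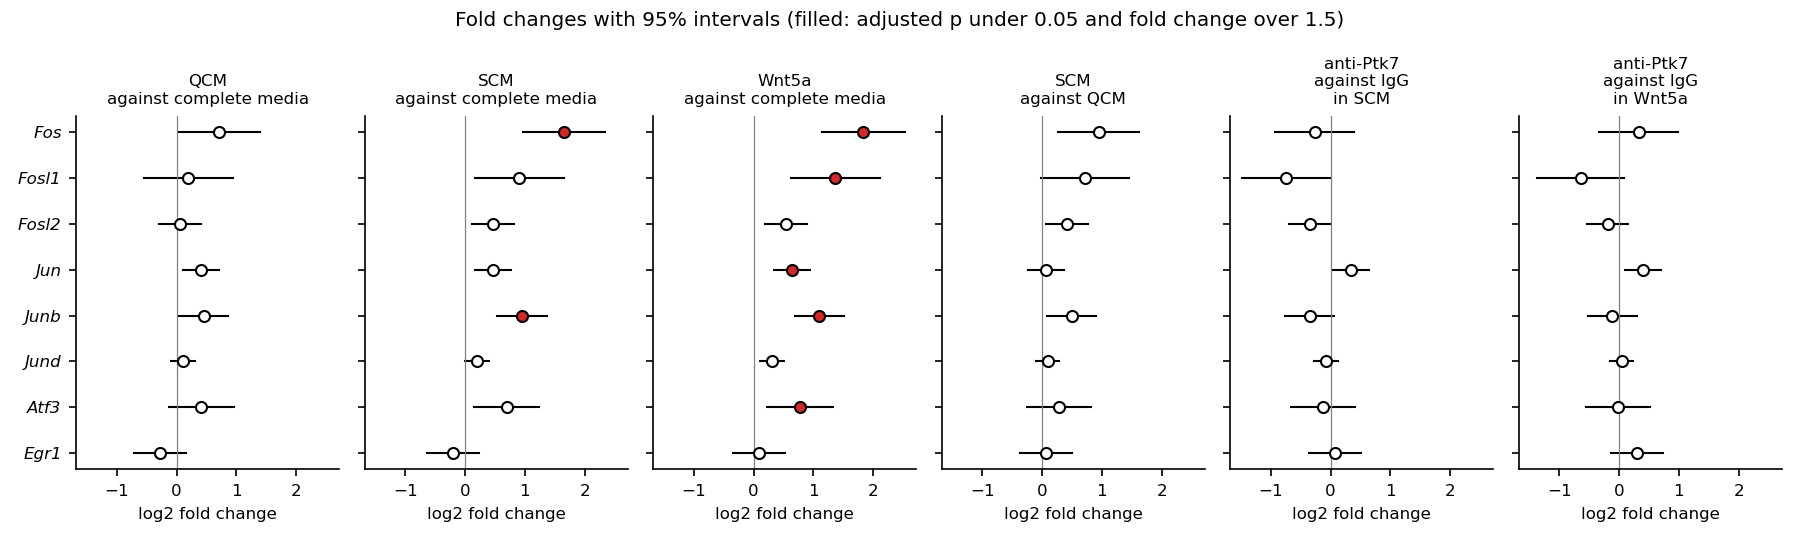
Log2 fold changes (horizontal axes) of the 8 tested members in 6 comparisons, with 95% intervals from their standard errors. Filled points passed both the adjusted p and the fold cutoff. Filled points are Fos and Junb with SCM and Fos, Fosl1, Jun, Junb and Atf3 with Wnt5a, and the 4 other panels have none.

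QCM was the control for conditioned medium as such. Jun had 158, 216 and 255 CPM in QCM + IgG, Junb 81.1, 108 and 142 CPM and Egr1 69.4, 97.3 and 144 CPM, all ranges that overlapped those of complete media + IgG. Against complete media no member was called, beside 0.374% of all genes called and 1.74% with ranges that did not overlap (no member's). Fos was at log2 0.71 ± 0.35 (adjusted p = 0.416), Junb at 0.45 ± 0.21 (0.382) and Jun at 0.41 ± 0.15 (0.24), and these were the 3 members with an unadjusted p below 0.05 in edgeR. DESeq2 and voom with limma called 0 members as well. With the replicate block Fos was called, at log2 0.68 (adjusted p = 0.0392), beside 1.15% of all genes. All 6 same-numbered pairs had more Fos in QCM + IgG than in complete media + IgG, and the same held for Jun and Junb, beside 7.41% of all tested genes higher in all 6 pairs.

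SCM against QCM compares the fibroblast states directly. No member was called by edgeR, DESeq2 or voom with limma, with 3 at an unadjusted p below 0.05, beside 0.903% of all genes called by edgeR. Fos had a log2 fold change of 0.94 ± 0.34 (adjusted p = 0.139), Fosl1 0.71 ± 0.37 (0.336), Junb 0.49 ± 0.21 (0.211) and Fosl2 0.41 ± 0.18 (0.226). Fosl2 was the single member whose ranges did not overlap, as they did not for 2.19% of all genes. Jun differed by 0.06 ± 0.15 (95% interval -0.24 to 0.36). With the replicate block Fos (0.90, adjusted p = 0.00123) and Fosl1 (0.72, adjusted p = 0.0043) were called, beside 3.2% of all genes, and Fos, Fosl1, Fosl2 and Junb were higher in SCM + IgG in 6 of 6 same-numbered pairs, as 6.23% of all genes were.

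Anti-Ptk7 was set against IgG in each treated medium. No member was called in SCM, beside 1.23% of all genes, or in Wnt5a, beside 0.884%, by edgeR, DESeq2 or voom with limma. These fits did not use the replicate number. With it as a block Fosl1 was called lower in both media (values below), beside 2.57% and 1.65% of all genes. In each medium 1 member, Jun, had an unadjusted p below 0.05. No member's ranges were separate in either medium, as they were for 1.73% and 2.38% of all genes. The fitted differences farthest from 0 in both directions were those of Fosl1, below 0, and Jun, above 0, in each medium. Egr1 was at 0.07 ± 0.22 in SCM and 0.30 ± 0.22 in Wnt5a (adjusted p = 0.908 and 0.576), with 62.5 to 151 CPM in SCM + anti-Ptk7 and 119.6 to 211 CPM in Wnt5a + anti-Ptk7. Fosl2 spread most in SCM + anti-Ptk7, from 18.8 to 71.0 CPM around a median of 46.0, and its log2 fold change there was -0.35 ± 0.18 (adjusted p = 0.306). Jund and Atf3 were at -0.08 and -0.12 in SCM and at 0.04 and -0.01 in Wnt5a.

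Fosl1 had 4.77, 11.2 and 32.1 CPM (lowest, median, highest) in SCM + anti-Ptk7, against 14.99, 21.2 and 38.2 CPM in SCM + IgG. In Wnt5a + anti-Ptk7 it had 10.3, 16.3 and 42.6 CPM, against 16.8, 27.1 and 61.4 CPM in Wnt5a + IgG. The ranges overlapped, and the log2 fold changes were -0.74 ± 0.38 in SCM (adjusted p = 0.307) and -0.65 ± 0.37 in Wnt5a (adjusted p = 0.43). Leaving out 1 library moved the SCM value between -1.21 (without SCM + anti-Ptk7 replicate 1) and -0.54 (without SCM + IgG replicate 5). The Wnt5a value moved between -1.01 (without Wnt5a + anti-Ptk7 replicate 1) and -0.35 (without Wnt5a + IgG replicate 1), and was -0.71 without both of these. By replicate number, Fosl1 was lower with the antibody in 5 of 6 pairs in SCM, number 1 being the exception, and in 6 of 6 in Wnt5a, beside 7.53% of all genes lower in all 6 pairs there. With the replicate block it was called lower in both, at -0.93 (adjusted p = 0.000487) beside 2.57% of all genes and at -0.67 (adjusted p = 0.0113) beside 1.65%.

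Jun had 209.8, 268 and 341 CPM in SCM + anti-Ptk7 and 280.3, 318 and 396 CPM in Wnt5a + anti-Ptk7. It was higher with the antibody in 6 of 6 pairs in each medium, by a mean of 0.35 ± 0.16 log2 units in SCM and 0.40 ± 0.25 in Wnt5a (SD over 6 pairs), beside 5.34% and 7.14% of all genes higher in all 6 pairs. The fitted log2 fold changes were 0.33 ± 0.15 (adjusted p = 0.256) and 0.39 ± 0.15 (adjusted p = 0.184), and neither passed with the block (adjusted p = 0.166 and 0.099).

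Fos had 37.2, 101 and 214 CPM in SCM + anti-Ptk7 and 108, 147 and 320.3 CPM in Wnt5a + anti-Ptk7. Junb had 74.6, 126 and 149 CPM and 115, 133 and 277 CPM in the same conditions. Each range overlapped that of the matching IgG libraries. Fos and Junb were lower with the antibody in 6 of 6 pairs in SCM, with mean differences of -0.35 ± 0.22 and -0.33 ± 0.23 log2 units (SD), beside 5.81% of all genes lower in all 6. In Wnt5a Fos was instead higher in 6 of 6 pairs, by a mean of 0.33 ± 0.19, beside 7.14% of all genes, while Junb was lower in 5 of 6, by a mean difference of -0.14 ± 0.12. All 6 pairs in 1 direction in SCM and in the other in Wnt5a were found for 10 of the 15497 genes, with Fos the single member. Fitted, the antibody's log2 fold change of Fos was -0.27 ± 0.34 in SCM and 0.33 ± 0.34 in Wnt5a. Leaving out 1 library moved the SCM value between -0.59 (without SCM + anti-Ptk7 replicate 5) and -0.03 (without SCM + IgG replicate 5). It moved the Wnt5a value between 0.10 (without Wnt5a + anti-Ptk7 replicate 1) and 0.54 (without Wnt5a + IgG replicate 1). The test of the difference between the antibody's effects in the 2 media called 0 of the 8 members and 0 of 15497 genes (background 0%), with 602 genes at an unadjusted p below 0.05 in edgeR and 0 calls by DESeq2 or voom with limma. For Fos that difference was 0.60 ± 0.48 (unadjusted p = 0.219, adjusted p = 0.999), and 0.68 ± 0.25 with the block (adjusted p = 0.739, beside 0.0194% of all genes).

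**Figure D3:**
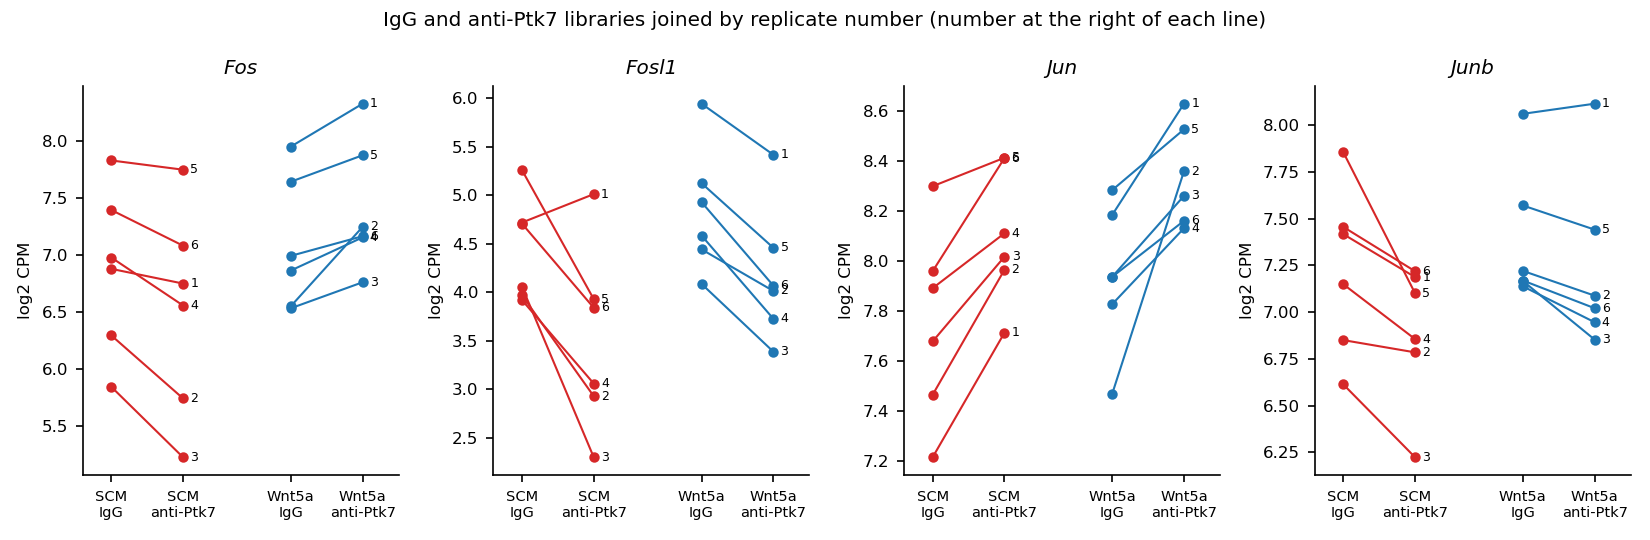
Log2 CPM (vertical axes, each gene on its own scale) of Fos, Fosl1, Jun and Junb in the IgG and anti-Ptk7 libraries of SCM (red) and Wnt5a (blue). Lines join libraries with the same replicate number. All 6 Jun lines go up in each medium, all 6 Fosl1 lines go down in Wnt5a, and the Fos lines go down in SCM and up in Wnt5a.

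The antibody-treated cultures were also set against complete media + IgG. With SCM + anti-Ptk7, Fos (log2 1.38 ± 0.35, adjusted p = 0.00698) and Jun (0.80 ± 0.16, adjusted p = 0.000487) were called higher, beside 5.86% of all genes. With Wnt5a + anti-Ptk7, Fos (2.16 ± 0.36, adjusted p = 1.73e-05), Jun (1.03 ± 0.16, adjusted p = 4.71e-06), Junb (0.98 ± 0.21, adjusted p = 0.000455) and Atf3 (0.76 ± 0.28, adjusted p = 0.035) were, beside 14.5%. Fosl1 was at 0.16 ± 0.38 and 0.72 ± 0.38 (adjusted p = 0.839 and 0.152). Without both Wnt5a libraries numbered 1 the Wnt5a + anti-Ptk7 values were 1.93 for Fos, 0.96 for Jun and 0.75 for Junb, each still called, and 0.36 for Fosl1. Atf3's call was lost without Wnt5a + anti-Ptk7 replicate 1 (log2 0.48, adjusted p = 0.208) and in other alternatives. Jun's ranges lay wholly above complete media in both, Fos and Junb's in Wnt5a + anti-Ptk7, beside 6.32% and 16.3% of all genes. Junb in SCM + anti-Ptk7 was called by DESeq2 (0.60, adjusted p = 0.0363) and by edgeR without both Wnt5a libraries numbered 1 (0.59, adjusted p = 0.0179). With the block it was called there as well (0.60, adjusted p = 0.000262, beside 7.13%) and Fosl1 in Wnt5a + anti-Ptk7 (0.68, adjusted p = 0.00164, beside 15%). These cultures differ from complete media by medium and antibody together.

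Part of the spread within a condition followed the replicate number. Fosl1 libraries numbered 1 and 5 lay above their condition's mean in 6 of 6 conditions, and those numbered 2, 3 and 4 below it in 6 of 6. The same numbers split Junb in the same way. Fos libraries numbered 5 were above in 6 of 6 conditions, by a mean of 0.74 log2 units, and those numbered 2 and 3 below in 6 of 6, by mean deviations of -0.52 and -0.74. Jun, Fosl2 and Jund showed no number that was on the same side in all 6 conditions. The share of all genes with such splits was not taken. The series describes organoids from 6 numbered mice, but the labels do not say that the replicate number is the mouse, so that mouse and library batch cannot be told apart here.

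**Figure D4:**
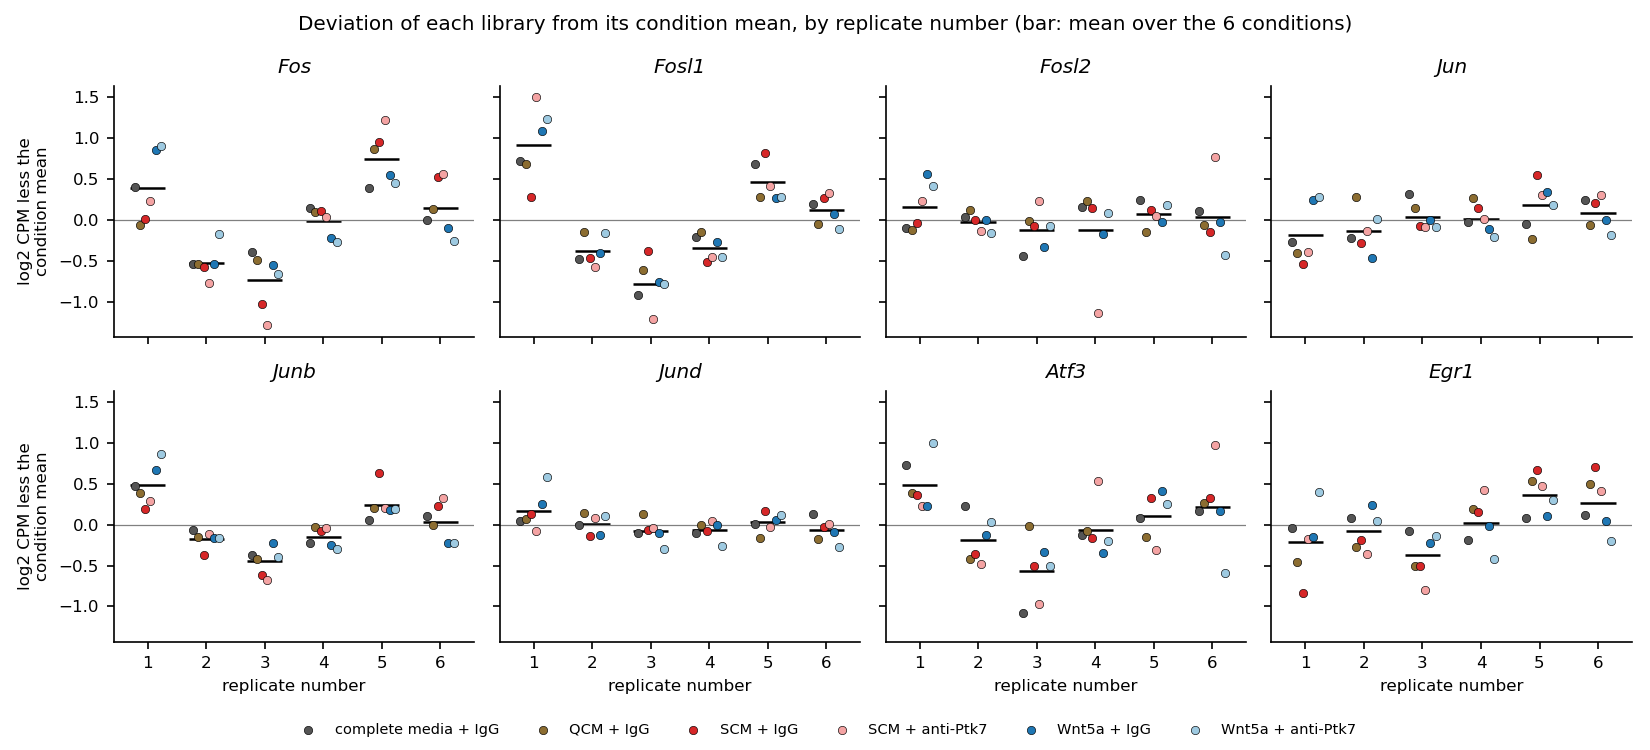
Log2 CPM less the mean of the library's condition (vertical axis, shared) for the 8 detected members, by replicate number, with conditions in colour and a bar at the mean of the 6 conditions. Fosl1 and Junb are above 0 for numbers 1 and 5 and below 0 for numbers 2, 3 and 4 in all 6 conditions, and no such split is seen for Jun, Fosl2 or Jund.

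Deviations from the condition means were used to describe which members varied together over the 36 libraries. Of the 28 pairs of detected members 10 had a Pearson r above 0.5, the median was 0.413, and the range was 0.00808 to 0.876. Fosl1 with Junb (0.876), Fos with Junb (0.839) and Fos with Fosl1 (0.775) were the closest, followed by Junb with Atf3 (0.771). Jun was nearly unrelated to Fosl1 (0.0984) and to Atf3 (0.0986). The points share the replicate numbers and the library scaling: deviations of Junb and Jund had r = -0.752 and -0.777 with those of the TMM factor, and -0.662 and -0.542 over the 34 libraries left without both Wnt5a libraries numbered 1. Fos and Fosl1 were at -0.608 and -0.647, and at -0.618 and -0.561 over the 34. Atf3 was at -0.506 over the 36 libraries, and Egr1 was nearest 0, at -0.18. The part of depth and scaling in these correlations was not tested.

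The tested gene most like Fos over the 36 libraries was Phlda1 (r = 0.933), a growth factor-induced gene, and within conditions Dusp1 (r = 0.925), an immediate early phosphatase that switches off MAP kinases. Fosl1 was closest to Ezr (0.95), Bmp8b (0.942) and Myc (0.936), and within conditions to Lrrfip1 (0.941), Plaur (0.939) and Krt7 (0.934). Junb was closest to the epithelial keratin genes Krt19 (0.96) and Krt8 (0.956) and a Krt8 pseudogene. Jun was nearest to Klf10 (0.835), an early gene of the TGF-beta response, and within conditions to Sox4 (0.731). Egr1 was nearest to Dusp1 on both measures (0.749 and 0.765), and Fos was among its 3 nearest genes within conditions (0.679). The gene nearest to Jund was Gm11175 (0.946), its overlapping antisense gene. These are likenesses of level over libraries only.

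Of 19 other immediate early genes 16 were tested. With SCM 4 were called higher and none lower, beside 6.08% of all genes (median log2 fold change 0.37, against 0.01 over all tested genes), and with Wnt5a 5 and none, beside 10.2% (median 0.35, against 0.01). They were led by Rhob, a small GTPase (1.65 with SCM and 2.19 with Wnt5a), Ier3, a survival gene (1.43 and 1.72), and the zinc finger genes Klf6 (1.24 and 1.44) and Klf10 (0.79 and 0.90). Rhob went from a mean of 7.95 CPM in complete media + IgG to 24.99 in SCM + IgG and 36.4 in Wnt5a + IgG. It was also the single gene of this list called in SCM against QCM (1.09, adjusted p = 0.0227), beside 0.903% of all genes. There the block added Ier3 (0.93) and Klf6 (0.82), beside 3.2% of all genes. Nr4a2, a nuclear receptor, fell by 0.60 with anti-Ptk7 in SCM (adjusted p = 0.015), beside 1.23% of all genes called. With the block Ier3 was called lower with the antibody in SCM (-0.83) and in Wnt5a (-0.73), beside 2.57% and 1.65% of all genes.

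Among 13 MAP kinase and serum response genes upstream, all tested, Elk3 alone was called in these comparisons, at log2 2.03 with SCM and 3.21 with Wnt5a. A count of 1 in 13 is close to the 6.08% and 10.2% of all genes called. It encodes a partner of serum response factor and rose from a mean of 1.99 CPM in complete media + IgG to 8.09 and 18.3 CPM. With the block Elk3 was also called higher in SCM against QCM (1.42), beside 3.2% of all genes. It was then called lower with anti-Ptk7 in SCM (-0.97), beside 2.57%, and was at -0.33 in Wnt5a. Of 11 ERK feedback genes 2 were called higher with SCM and 3 with Wnt5a, and none lower, beside 6.08% and 10.2% of all genes: Phlda1 (0.93 and 1.43), the ERK phosphatase gene Dusp6 (0.72 and 0.91) and, with Wnt5a, Dusp5 (1.04). Spry1, an inhibitor of receptor kinase signalling, fell by 0.69 with anti-Ptk7 in SCM (adjusted p = 0.00853), beside 1.23% of all genes called. Among 11 further zipper partner genes, 9 of them tested, Jdp2, a repressor of JUN, was the single gene called with Wnt5a (1.33, adjusted p = 0.00608), close to the 10.2% of all genes, and stood at 0.89 with SCM (adjusted p = 0.0989).

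Of 10 genes known as AP-1 targets 5 were expressed highly enough to be tested, and Mmp3, Mmp9, Mmp10, Mmp13 and Timp1 were not. With SCM and with Wnt5a 2 were called higher and none lower, beside 6.08% and 10.2% of all genes: Plaur, the urokinase receptor (log2 1.33 and 1.85), and Cd44, a hyaluronan receptor (0.80 and 1.21). The list's median was 0.41 with SCM and 0.83 with Wnt5a, against 0.01 over all tested genes in each. Cd44 was called in SCM against QCM (0.71, adjusted p = 0.0468), beside 0.903% of all genes, where the block added Plaur (0.86), beside 3.2%. With the block Plaur was called lower with anti-Ptk7 in SCM (-0.72), beside 2.57% of all genes, and was at -0.52, under the fold cutoff, in Wnt5a.

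**Figure D5:**
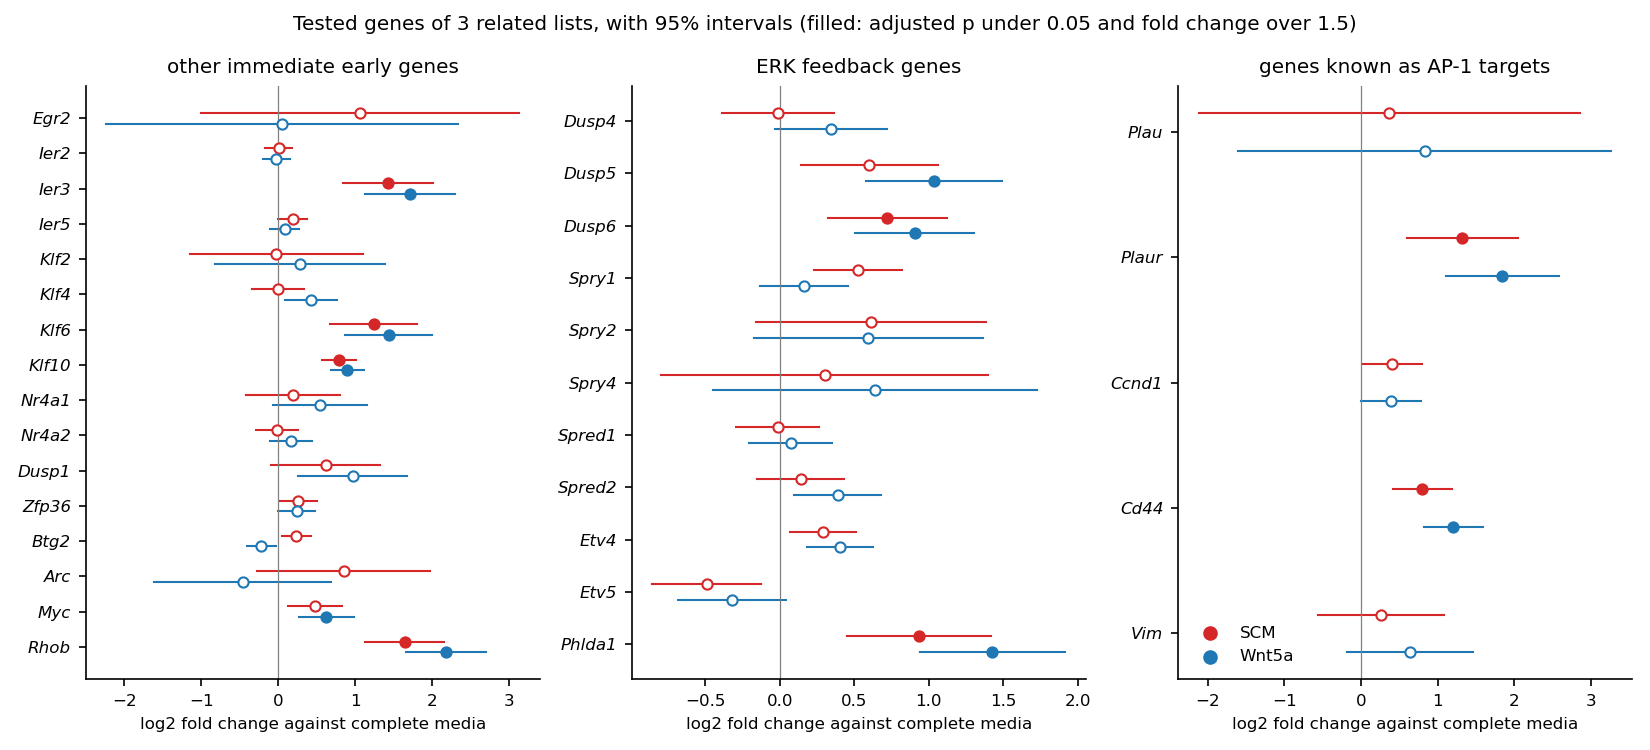
Log2 fold changes against complete media (horizontal axes) of every tested gene of 3 related lists with SCM (red) and Wnt5a (blue), with approximate 95% intervals. Filled points passed the adjusted p and fold cutoffs. Rhob, Ier3, Klf6, Klf10, Phlda1, Dusp6, Plaur and Cd44 are filled for both media.

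Of 8 epithelial markers 3 were called higher with SCM (Krt8 1.08, Krt18 1.00, Krt19 0.95) and 4 with Wnt5a (these keratins and Cdh1), and none lower, beside 6.08% and 10.2% of all genes. The list's median log2 fold change was 0.38 with SCM and 0.55 with Wnt5a, against 0.01 over all tested genes in each. The homeobox genes Cdx1 (-0.30 and -0.50) and Cdx2 (-0.21 and -0.20) were the markers below 0. None was called in SCM against QCM, beside 0.903% of all genes (Krt8 at 0.64 and Krt18 at 0.59 were with the block, beside 3.2%). The summed level of the 8 ranged from 8916 to 12046 CPM in complete media + IgG, 12936 to 19865 in SCM + IgG and 15060 to 27680 in Wnt5a + IgG. The fibroblast sum was 0.146 to 5.69, 0 to 2.70 and 0.211 to 3.09 CPM in the same conditions and 2.26 to 7.36 CPM in SCM + anti-Ptk7, most of it Pdgfrb, which was at 1.88 with anti-Ptk7 in SCM (adjusted p = 0.0927, called with the block). Heat shock genes, which respond to stress, summed to 380.1 to 417 CPM in complete media + IgG, 370.3 to 414 in SCM + IgG and 371 to 459.7 in Wnt5a + IgG, and to 336 to 379 and 313 to 366 in the antibody-treated SCM and Wnt5a cultures. Of 9 such genes 8 were tested. None was called with SCM, beside 6.08% of all genes, and 1, Hspa1b, was called higher with Wnt5a (1.40), beside 10.2%. With the block Hspa1b was called with SCM (0.85) and Hspa1a with Wnt5a (1.22), beside 7.31% and 11% of all genes. With anti-Ptk7 all 8 had log2 fold changes below 0 in each medium (median -0.26 in SCM and -0.38 in Wnt5a), while 7797 and 7910 of the 15497 tested genes were above 0. Of the 8, Hsp90aa1 fell by 0.62 in Wnt5a (adjusted p = 0.00995, beside 0.884% of all genes called) and none was called in SCM, beside 1.23%. The block added Hspa1b as lower in SCM (-0.60) and in Wnt5a (-0.63), beside 2.57% and 1.65%. Hspa1a and Hspa1b are near-identical copies, so reads may have been split between them. The part of the epithelial, fibroblast and heat shock genes in the members' differences was not tested.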

How the data were processed

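RNA of the 36 organoid cultures was made into libraries by SMART-Seq v4 and Nextera XT and sequenced as single-end 50-base reads. According to the study's methods, the authors aligned reads with GSNAP through HTSeqGenie to the mouse genome NCBI Build 38 (mm10) and counted reads within coding sequences. The deposited values used are these raw counts per gene, and a series-wide table of the same columns was not used. The annotation and the use of strand are not given in the sources used here. Symbols and positions were taken from GENCODE M21, which matched all 106 genes of the lists, the 9 members included. A further gene was left out of the list of AP-1 targets and of its counts and is not reported here.

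Genes were filtered with filterByExpr, leaving 15497. Counts were scaled by TMM and tested in 1 fit of 6 condition means over all 36 libraries with edgeR 4.0.16 (glmQLFit, glmQLFTest) in R 4.3.3, called at adjusted p under 0.05 and fold change over 1.5, the cutoffs of the study. The study used voom with limma and quantile normalization. That fit (limma 3.58.1), DESeq2 1.42.0, other scalings and filters, left-out libraries and a replicate block were alternatives. The 2 comparisons of antibody-treated cultures with complete media, and leaving out both Wnt5a libraries numbered 1, were added after seeing the data, as were the shares of all genes with same-numbered pairs in 1 direction. Log2 CPM used a prior count of 2. The tests were checked on simulated data. The members, lists and tests were chosen with earlier results of these data known. Named genes were the members, up to 4 called genes with the largest change per list and comparison, and the 3 genes most like each member, shown in part.

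Replicate numbers were taken as pairing because the series describes organoids of 6 numbered mice, although the labels do not tie the numbers to mice. Over all tested genes, the deviations of 90 same-numbered pairs of libraries had a mean r of 0.092 (range -0.0442 to 0.45), and those of 450 differently numbered pairs -0.018. The study's methods describe no block, and it stayed an alternative. P-values measure the spread between these libraries. Limits for a count of 0 cover counting error only.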

Additional observations from a re-analysis of the deposited data

Results flagged for a closer look

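In 48 groups of 6 libraries (8 members in 6 conditions) 1 library lay far from its group by the gap between it and its nearest neighbour, and chance would give about 1 in 20, or 2.4. It was Wnt5a + IgG replicate 1, where Fosl2 had 87.5 CPM and the others 47.0 to 59.1 CPM. The same library had the highest Fos, Fosl1 and Junb of its condition and a TMM factor of 0.925.

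The paired differences of Fos with the antibody lay in opposite directions in all same-numbered pairs, lower in 6 of 6 in SCM and higher in 6 of 6 in Wnt5a, a pattern of opposite directions that 10 of the 15497 tested genes had. The difference between the antibody's effects was 0.60 on the log2 scale and did not pass the test (unadjusted p = 0.219 and adjusted p = 0.999 in edgeR, adjusted p = 0.739 with the replicate block). Leaving out 1 library moved the antibody's effect on Fos from -0.59 to -0.03 in SCM and from 0.10 to 0.54 in Wnt5a.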

How the results depend on the processing

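The number of members called higher in Wnt5a against complete media ranged from 3 to 6 when 1 library was left out. It was 3 without complete media + IgG replicate 2 (1154 of 15700 genes called higher and 277 lower). Without Wnt5a + IgG replicate 5 it was 3 as well (1146 of 15680 and 231), and without Wnt5a + IgG replicate 3 it was 6 (1411 of 15709 and 334). The number that differed in any condition ranged from 3 (without Wnt5a + IgG replicate 1) to 7, with no share of all genes taken. Fos and Junb kept their calls with SCM and Wnt5a in every alternative run. With Wnt5a, DESeq2 called 5 members, beside 1352 of 15497 genes higher and 323 lower. Voom after quantile normalization called 4, beside 1015 genes higher and 562 lower, and there Atf3 did not pass (adjusted p = 0.0561). The replicate block raised the number of members called higher to 1 in QCM against complete media, 4 in SCM against complete media and 2 in SCM against QCM, and of those called lower with anti-Ptk7 to 1 in SCM and 1 in Wnt5a. It also added Junb in SCM + anti-Ptk7 and Fosl1 in Wnt5a + anti-Ptk7 against complete media, and changed no other call of a member. The shares of all genes called with the block are given above. With voom and TMM 1 member was called higher in SCM + anti-Ptk7 against complete media, since Fos was at 1.17 (adjusted p = 0.0523). Of all 15497 genes 532 were called higher there and 209 lower.

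Signs changed only for uncalled values near 0. In SCM against QCM, Egr1 was at -0.0205 with voom after quantile normalization and -0.027 with voom and TMM. In SCM + anti-Ptk7 against complete media, Fosl1 was at -0.108 and Fosl2 at -0.0293 with voom after quantile normalization, and Fosl1 at -0.00799 with voom and TMM. Without both Wnt5a libraries numbered 1, Jund was at -0.0473 with anti-Ptk7 in Wnt5a. Leaving out single libraries, the log2 fold changes ranged as follows. Fosl2 in QCM against complete media went from -0.0356 to 0.0888. In SCM against QCM, Jun went from -0.0668 to 0.164 and Egr1 from -0.0854 to 0.219. With anti-Ptk7 in SCM, Atf3 went from -0.383 to 0.0102 and Egr1 from -0.0669 to 0.228. With anti-Ptk7 in Wnt5a, Junb went from -0.345 to 0.0516, Jund from -0.0989 to 0.0967 and Atf3 from -0.282 to 0.0935. In SCM + anti-Ptk7 against complete media, Fosl1 went from -0.299 to 0.341 and Fosl2 from -0.0704 to 0.27. The cause of these changes was not tested. Fosb, at 12 counts or fewer per library, was left out by the filter on low counts.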
